A study of Mus musculus with 14 samples.

Results

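The annexins are a family of proteins that bind acidic membrane phospholipids when calcium rises. The members examined here were Anxa1, Anxa2, Anxa3, Anxa4, Anxa5, Anxa6, Anxa7, Anxa8, Anxa10 and Anxa11, taken by gene symbol, 10 genes in all. Of these, 9 had probe sets that name 1 gene, 21 probe sets together, out of 18193 genes and 34945 probe sets tested. Anxa11, which tethers RNA granules to lysosomes and is mutated in some motor neuron disease, had 1 probe set. That probe set is annotated to 3 genes, so Anxa11 has no value here.

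Annexins share a conserved core that docks on membranes through calcium, and they differ in their N-terminal tails, which bind partner proteins. They act in vesicle traffic, in sealing torn plasma membranes and in curbing inflammation. Anxa1 is known in the midbrain as a marker of a subset of dopaminergic neurons in the ventral tier of the substantia nigra, and elsewhere as a glucocorticoid-induced, inflammation-resolving protein that signals through formyl peptide receptors. Anxa2 pairs with S100a10 at the cell surface, Anxa5 binds exposed phosphatidylserine, and Anxa7 binds the calcium-binding protein sorcin, the product of Sri.

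The data were log2 signals of 14 Affymetrix arrays of ribosome-bound mRNA, pulled by an epitope tag (RiboTag) from the dopaminergic neurons of mouse ventral midbrain. In Tfr1-null mice (labelled Tfr1ΔDN), these neurons lacked transferrin receptor 1, which carries transferrin-bound iron into cells. Controls were heterozygous for the Tfr1 allele, and all mice carried the RiboTag background on an F2 of 129Sv and C57BL/6. Both genotypes were sampled at 3 weeks, with 3 control and 4 Tfr1-null libraries, and at 10 weeks, with 4 control and 3 Tfr1-null libraries. The labels name neither the Cre line that made the deletion nor separate animals for the replicates, so p-values and standard errors measure the spread between these libraries, which may be technical.

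In 2 libraries the signal of Tfrc, the gene of transferrin receptor 1, went against the genotype in the title, which is the label used here. For Tfr1-null 3 weeks 1 the source name says control, so its own labels conflict. At the 5′ Tfrc control probe set, the other Tfr1-null libraries were low (6.88 to 7.73 log2 units at 3 weeks, 7.79 to 9.29 at 10 weeks), and controls were high (9.50 to 9.59 and, without control 10 weeks 1, 9.63 to 10.44). The library labelled Tfr1-null 3 weeks 1 read 9.67 there, and the library labelled control 10 weeks 1 read 8.55. At the middle probe set Tfr1-null libraries were instead the higher ones, and the deleted exons are not named by the labels. There the library labelled Tfr1-null 3 weeks 1 read 8.82 beside 8.80 to 8.86 in controls and 10.70 to 10.98 in the other Tfr1-null libraries. The library labelled control 10 weeks 1 read 11.43 beside 9.17 to 9.86 in the other controls and 11.39 to 11.69 in Tfr1-null. No library was moved. Every comparison was run on all 14 under their labels, and again on the 12 left once these 2 were set aside, 3 per group. Th, which encodes tyrosine hydroxylase of the dopamine pathway, lay between 13.54 and 14.55 in every library, but Mbp of myelin lay between 12.83 and 14.06 and the astrocyte transporter gene Slc1a2 between 12.76 and 14.02. Transcripts of other cells were thus present in every library, and in such material fewer cells of a type and less RNA per cell cannot be told apart. Array medians were 6.41 to 6.47 in the 3-week libraries, and 7.36 to 7.43 in the 10-week libraries. Precision is limited by how few arrays there were.

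The family was chosen by its genotype differences: it was taken up with the Tfr1-null against control values of Anxa1 and the other members, at both ages, already known. The differences of its members between genotypes are therefore given as a description, with their standard error (SE) from limma, and without p-values. A gene is called where its limma p, adjusted by Benjamini-Hochberg over all 18193 genes, is under 0.05. Each gene is represented by its leading probe set, the one with the highest mean over all arrays.

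Anxa1 stood apart from the rest of the family at both ages. At 3 weeks it was 16.4-fold lower in Tfr1-null neurons, a difference of -4.04 log2 units (SE 0.29, 3 libraries per group) in the 12 libraries. At 10 weeks it was 21.8-fold lower, by -4.45 (SE 0.29). The other 8 annexins ranged from -0.48 to 0.31 at 3 weeks and, at 10 weeks, from -0.33 to 0.61, and none of them was called.

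The promoters of Anxa1 and of Anxa2, the members with the largest fall and the largest positive difference, are shown because their start regions differ in the motifs they hold. Each line gives the 250 bases before the RefSeq transcript start (GRCm38.p6), 5′ to 3′ on the strand of the gene. Capitals mark matches to any of 6 motifs searched on both strands, of which only the TATA box, the AP-1 site and the hypoxia core occur in these windows.
Anxa1, chr19:20390672-20390921, minus strand: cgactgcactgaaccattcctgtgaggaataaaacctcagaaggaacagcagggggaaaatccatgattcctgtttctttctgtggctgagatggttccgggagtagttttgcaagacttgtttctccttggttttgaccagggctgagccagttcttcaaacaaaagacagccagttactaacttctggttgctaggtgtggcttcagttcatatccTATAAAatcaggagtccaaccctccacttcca
Anxa2, chr9:69453433-69453682, plus strand: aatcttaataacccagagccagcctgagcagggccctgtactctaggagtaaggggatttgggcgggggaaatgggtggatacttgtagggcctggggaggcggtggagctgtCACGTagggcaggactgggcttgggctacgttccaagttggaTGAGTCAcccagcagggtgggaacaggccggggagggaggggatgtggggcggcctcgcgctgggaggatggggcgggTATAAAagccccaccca

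Anxa1 held a TATA box (TATAAA) whose first base lies at -32, counted back from -1 just before the start, and no other match. Anxa2 held a TATA box at -17, an AP-1 site (TGANTCA) at -95 and the hypoxia response core (ACGTG) on the opposite strand at -137. Of 32851 RefSeq promoter windows of this length, 12.4% held a TATA box, 6.75% an AP-1 site and 16.6% the hypoxia core. The nuclear receptor site bound by Nr4a2 (AAAGGTCA, in 1.34% of windows), the cyclic AMP element (TGACGTCA, 1.55%) and the palindromic glucocorticoid response element (0.00913%) were found in no annexin window. RefSeq promoters matched 8 of the 10 members, and Anxa3 and Anxa6 had none. Of the others, Anxa10 held 2 AP-1 sites and a TATA box, Anxa5 held the hypoxia core once, and Anxa7 held it on both strands in 1 of its 2 windows. Anxa4, with 2 windows, and Anxa8 and Anxa11, with 1 each, held no match. GC content ran from 33.6% in Anxa10 to 64.8% in the first window of Anxa4. A match describes letters in a window and does not show that a factor binds there.

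Anxa1 read 10.91, 10.75 and 10.78 log2 units in control 3 weeks 1 to 3 and 6.30, 6.95 and 7.07 in Tfr1-null 3 weeks 2 to 4. The library labelled Tfr1-null 3 weeks 1 read 10.60, near the controls. The other Tfr1-null libraries of that age lay far below every control. At 10 weeks Anxa1 read 11.77, 12.13 and 12.31 in control 10 weeks 2 to 4 and 6.94, 8.07 and 7.87 in Tfr1-null 10 weeks 1 to 3. The library labelled control 10 weeks 1 read 8.03, inside the Tfr1-null range, so the groups as labelled overlapped.

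**Figure D1:**
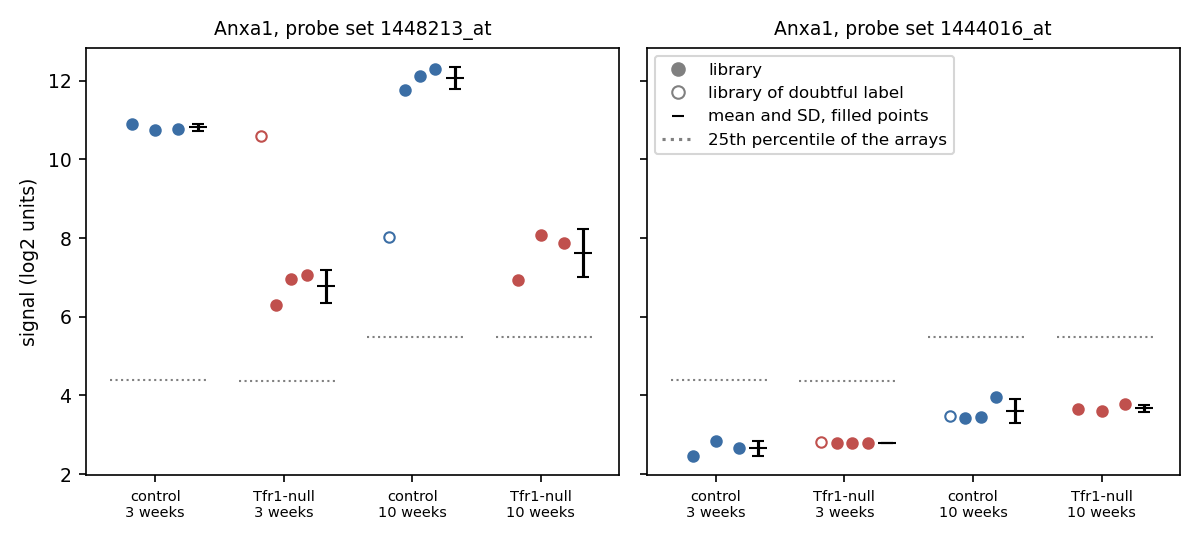
Signal of the Anxa1 probe sets (log2 units) in each library, by genotype and age. Filled points are the 12 libraries, open points the libraries labelled Tfr1-null 3 weeks 1 and control 10 weeks 1, bars the mean and SD of the filled points, and dotted lines the mean 25th percentile of the arrays in a group. The leading probe set falls from 10.81 to 6.78 at 3 weeks and from 12.07 to 7.62 at 10 weeks, and the other stays under the 25th percentile in every library.

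In the 12 libraries the means of Anxa1 were 10.81 ± 0.08 (SD, n = 3) in control and 6.78 ± 0.42 (SD, n = 3) in Tfr1-null at 3 weeks. At 10 weeks they were 12.07 ± 0.27 and 7.62 ± 0.61 (SD, n = 3 each). Among all 18193 genes the fall of Anxa1 was rank 1 at 3 weeks and rank 2 at 10 weeks, behind Lrmda. Every Tfr1-null library still lay above the 25th percentile of its own array, which is used here as the limit of background. Tfr1-null 3 weeks 2 (6.30) and Tfr1-null 10 weeks 1 (6.94) lay under their array medians (6.41 and 7.38). Which cells the remaining signal came from was not tested.

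With all 14 libraries as labelled, the difference of Anxa1 was -3.08 (SE 1.06) at 3 weeks and -3.44 (SE 1.06) at 10 weeks, and it was called at neither age. In this fit limma called 0 of 9 annexins at 3 weeks, where 0% of all genes were called. It called 0 of 9 at 10 weeks, where 1.21% were called. At an unadjusted p under 0.05 limma counted 1 of 9 annexins at 3 weeks and 2 of 9 at 10 weeks, beside 849 (4.67%) and 3612 (19.9%) of all genes. In the 12 libraries limma called 1 of 9 annexins lower at 3 weeks, where 1.16% of all genes were called lower, and 1 of 9 lower at 10 weeks, where 6.34% were. It was Anxa1 both times, and no annexin was called higher, where 0.682% and 4.73% of all genes were. The 12-library fit counted 4 of 9 annexins at each age at an unadjusted limma p under 0.05, beside 10.6% and 26.4% of all genes. These unadjusted counts describe genotype values that the choice of the family used, and nothing is read from them.

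The fall of Anxa1 was not shown to differ between the ages. The 10-week difference minus the 3-week difference was -0.41 (SE 0.40, 95% interval -1.30 to 0.48) in the 12 libraries and -0.35 (95% interval -3.60 to 2.89) in the 14. Limma called 0 of 9 annexins for this difference in either fit, where 0.286% of all genes were called in the 12 libraries and 0% in the 14. At an unadjusted p under 0.05 it counted 0 of 9 in both, where 12.2% and 7.48% of all genes passed. These intervals do not show that the effects are equal.

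The second Anxa1 probe set, 1444016_at, gave no such fall. It read 2.47 to 2.84 in 3-week and 3.44 to 3.96 in 10-week libraries, under the 25th percentile in all 14 libraries. Its differences, 0.13 (SE 0.15) and 0.06 (SE 0.15), lie among values that carry no level above background. The fall of Anxa1 therefore rests on 1 probe set, 1448213_at.

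The other markers of ventral tier neurons give a setting for this fall. Of 8 such genes fixed as a list (Aldh1a1, Sox6, Aldh1a7, Lmo3, Ndnf, Vcan, Agtr1a and Kcns3), 3 were called lower and none higher at 3 weeks in the 12 libraries. At 10 weeks 5 were lower and none higher. Of all genes, 1.16% were called lower at 3 weeks and 6.34% at 10 weeks. The list was chosen with earlier results of these data known, so its counts are a description. The median difference of the list was -0.42 and -0.68, beside 0.01 and -0.01 over all genes. In all 14 libraries 0 and 1 of the 8 were called, the latter being Lmo3 at 10 weeks. The 14-library fit called 0% and 1.21% of all genes at these ages.

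Among single ventral tier genes, Aldh1a7, an aldehyde dehydrogenase, fell, with differences of -1.005 (SE 0.19) at 3 weeks and -2.75 (SE 0.19) at 10 weeks, and so did the potassium channel subunit gene Kcns3, with -0.47 and -1.38 (SE 0.09). Aldh1a1, the dehydrogenase gene most used to mark these cells, differed by -0.17 (SE 0.08) at 3 weeks, which was not called, and fell by 0.28 (SE 0.08) at 10 weeks. Of 12 general dopaminergic genes 0 were called at 3 weeks, and 3 (Ddc, Drd2 and Foxa1) were lower at 10 weeks. Among all genes 1.84% were called at 3 weeks, and 6.34% were called lower at 10 weeks. The median difference of these 12 genes was -0.12 at 3 weeks and -0.31 at 10 weeks in the 12 libraries. Their mean level at 3 weeks lay between 11.92 and 11.93 in control and between 11.78 and 11.85 in Tfr1-null. At 10 weeks it lay between 12.66 and 12.97 in control and between 12.27 and 12.56 in Tfr1-null, without overlap at either age. The part that loss of a neuron subtype has in the fall of Anxa1 was not tested.

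The genes whose pattern was most like that of Anxa1 over the 12 libraries, after the mean of each age was taken away, were Sncg, Cabcoco1, Stx3, Pcbd1 and Vill. Pearson's r ran from 0.988 to 0.995 over the 12 libraries, and these share genotype, so the likeness is a description. Sncg, the gene of gamma-synuclein, differed by -2.08 (SE 0.16) and -2.60 (SE 0.16) at 3 and 10 weeks, and Cabcoco1 by -2.55 and -2.74 (SE 0.23). In the library labelled control 10 weeks 1, which took no part in the choice, Sncg read 10.57 beside 11.19 in the mean of Tfr1-null and 13.78 in the mean of control. Stx3, a syntaxin of the plasma membrane, read 10.61 there, between its means of 10.13 in Tfr1-null and 11.24 in control.

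Anxa2, Anxa3 and Anxa4 were measured at modest signal. The leading probe sets of Anxa3 and Anxa4 lay under the array median in every library, at most 5.74 and 5.76 at 3 weeks and 7.15 and 7.13 at 10 weeks. Anxa2, the membrane-bound partner of S100a10, read 6.41, 5.54 and 5.33 in the 3-week controls and 5.78, 5.95 and 5.68 in Tfr1-null 3 weeks 2 to 4, with 6.01 in the library labelled Tfr1-null 3 weeks 1. At 10 weeks it read 6.58, 7.49 and 6.81 in control 10 weeks 2 to 4, 7.17 in the library labelled control 10 weeks 1, and 7.13, 8.27 and 7.32 in Tfr1-null. The groups overlapped at both ages. The differences in the 12 libraries were 0.04 (SE 0.35) and 0.61 (SE 0.35), and the 95% interval at 10 weeks ran from -0.16 to 1.39.

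Only the leading Anxa2 probe set lay above background throughout. The other 2 probe sets of the gene differed by 0.26 and -0.12 at 3 weeks and by -0.09 and 0.05 at 10 weeks. Both lay under the 25th percentile in every 3-week library, and 1437691_at in every 10-week library too.

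Anxa3, which is found in microglia and other myeloid cells, read 5.74, 5.54 and 5.38 in the 3-week controls and 5.54, 5.55 and 5.52 in Tfr1-null 3 weeks 2 to 4. At 10 weeks it read 6.52, 6.80 and 6.32 in control 10 weeks 2 to 4 and 6.84, 7.15 and 6.80 in Tfr1-null. The libraries of doubtful label read 5.54 at 3 weeks and 6.80 at 10 weeks, inside the ranges of both genotypes. Its 10-week ranges met at 6.80, a value that control 10 weeks 1, control 10 weeks 3 and Tfr1-null 10 weeks 3 shared exactly. The difference was 0.38 (SE 0.14), against -0.02 (SE 0.14) at 3 weeks. Of 12 genes of microglia and macrophages 1 was called at each age, Cd68, the gene of a lysosomal glycoprotein, which rose by 2.01 and 3.87 (SE 0.15). Among all genes 0.682% and 4.73% were called higher. The mean level of these 12 genes lay between 7.25 and 7.88 in control and between 7.96 and 8.05 in Tfr1-null at 10 weeks, and between 6.71 and 6.74 and between 6.63 and 6.92 at 3 weeks. Without Cd68 the mean of the other 11 lay between 7.33 and 7.98 in control and between 7.76 and 7.83 in Tfr1-null at 10 weeks, with overlap, so the gap rested on that gene. None of the 12 lay under the 25th percentile in every library, and their part in the values of Anxa2 and Anxa3 was not tested.

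Anxa3 was the fifth of the genes most like Anxa2 over the 12 libraries (r = 0.887), after Trh (r = 0.900), Cd14, Glipr2 and Mfge8. Of the 5, Mfge8, the gene of a secreted phosphatidylserine-binding protein, had the largest difference at 10 weeks, 0.79 (SE 0.25).

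The 3 probe sets of Anxa4, an annexin first known from epithelia, differed by -0.25, -0.52 and -0.46 (SE 0.14, 0.24 and 0.20) at 10 weeks and by 0.07, -0.04 and 0.07 at 3 weeks. The third, 1424176_a_at, lay near background: under the 25th percentile in every 3-week control. At 10 weeks it lay above that percentile in 2 of the 3 controls of the 12 libraries and in 1 of 3 Tfr1-null libraries. The second, 1421223_a_at, lay under it in Tfr1-null 10 weeks 2. The leading probe set read 6.84, 7.13 and 6.78 in control 10 weeks 2 to 4 and 6.67, 6.78 and 6.56 in Tfr1-null. The top Tfr1-null library and the lowest of these controls met at 6.78, and the library labelled control 10 weeks 1 read 6.69. At 3 weeks the leading probe set read 5.76, 5.59 and 5.27 in the controls, 5.59, 5.60 and 5.64 in Tfr1-null 3 weeks 2 to 4 and 5.59 in the library labelled Tfr1-null 3 weeks 1, with overlap.

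**Figure D2:**
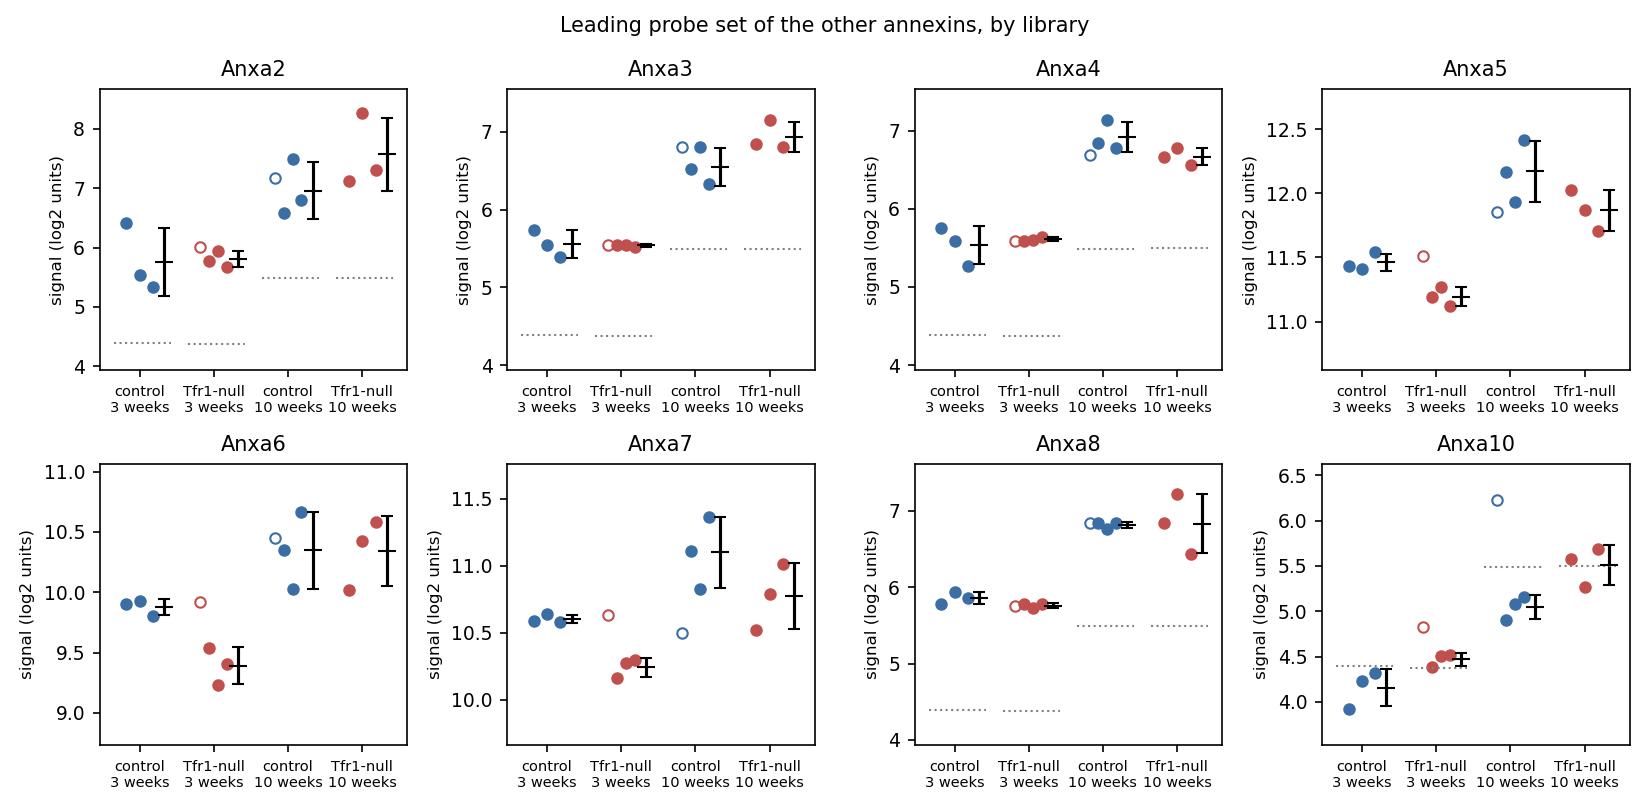
Signal of the leading probe set of the 8 other annexins (log2 units) in each library, each panel with its own axis. Points, bars and dotted lines are as for Anxa1, and a dotted line that is not drawn lies below the panel. At 3 weeks the filled Tfr1-null points of Anxa5, Anxa6 and Anxa7 lie below the controls, and those of Anxa10 above them near background. At 10 weeks only those of Anxa10 do not overlap the controls.

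Anxa5, Anxa6 and Anxa7 were measured well above background, and at 3 weeks each was slightly lower in the Tfr1-null libraries. Anxa5, the phosphatidylserine binder used as a probe for dying cells, read 11.43, 11.41 and 11.54 in the controls and 11.19, 11.27 and 11.12 in Tfr1-null 3 weeks 2 to 4. Anxa6, whose core is doubled and which acts in endocytosis and cholesterol traffic, read 9.90, 9.93 and 9.80 in the controls and 9.54, 9.23 and 9.40 in those Tfr1-null libraries. Anxa7, which promotes membrane fusion in secretion, read 10.59, 10.64 and 10.58 in the controls and 10.16, 10.27 and 10.30 in Tfr1-null. These 3 genes did not overlap between the 12-library groups. The library labelled Tfr1-null 3 weeks 1 read 11.51, 9.92 and 10.63 for Anxa5, Anxa6 and Anxa7, among the controls each time.

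The differences at 3 weeks were -0.27 (SE 0.13), -0.48 (SE 0.18) and -0.36 (SE 0.15) in that order, and none was called in the 12 libraries. With only the 3-week libraries in the fit, or with array weights, Anxa6 and Anxa7 were called lower beside Anxa1, 3 of 9 annexins. These settings called 5.05% and 7.48% of all genes, counted in both directions and not only lower. In the 12 libraries 5 of 9 annexins did not overlap between genotypes at 3 weeks: 4 lay lower in Tfr1-null, where 11.6% of all genes did, and 1 lay higher, where 13.3% did. At 10 weeks 1 of 9, Anxa1, lay lower without overlap, beside 12.7% of all genes, and 1 of 9, Anxa10, higher, beside 9.87%. These counts describe the genotype values that the choice of the family used, and nothing is read from them. In the 14 libraries Anxa1 and Anxa10 did not overlap at 3 weeks, 2 of 9 beside 8.16% of all genes, and 0 of 9 were apart at 10 weeks, beside 10.1%.

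At 10 weeks these small differences were uneven. Anxa5 read 12.16, 11.94 and 12.41 in control 10 weeks 2 to 4 and 12.02, 11.87 and 11.71 in Tfr1-null, a difference of -0.30 (SE 0.13) with overlap. Anxa7 read 11.11, 10.83 and 11.36 in those controls and 10.52, 10.79 and 11.01 in Tfr1-null, a difference of -0.33 (SE 0.15), again with overlap. Anxa6 read 10.35, 10.03 and 10.67 against 10.02, 10.42 and 10.58, a difference of -0.01 (SE 0.18). The library labelled control 10 weeks 1 read 11.85 for Anxa5, 10.45 for Anxa6 and 10.50 for Anxa7, the last below every other library of its age. The probe sets of Anxa6 parted there: 1415818_at and 1429246_a_at gave -0.01 and 0.10, whereas 1429247_at gave 1.06 (SE 0.36). The fourth, 1442288_at, lay under the 25th percentile in all 14 libraries. The probe set 1429247_at read 6.18, 5.18 and 5.55 in control 10 weeks 2 to 4, 7.27 in the library labelled control 10 weeks 1, and 7.33, 5.81 and 6.97 in Tfr1-null, so it varied by over 1 unit within every 10-week group and was not called.

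The 3 probe sets of Anxa7 differed by -0.33, -0.58 and -0.05 at 10 weeks and by -0.36, -0.31 and 0.01 at 3 weeks. The 2 brighter ones, 1416138_at and 1416137_at, were negative at both ages.

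**Figure D3:**
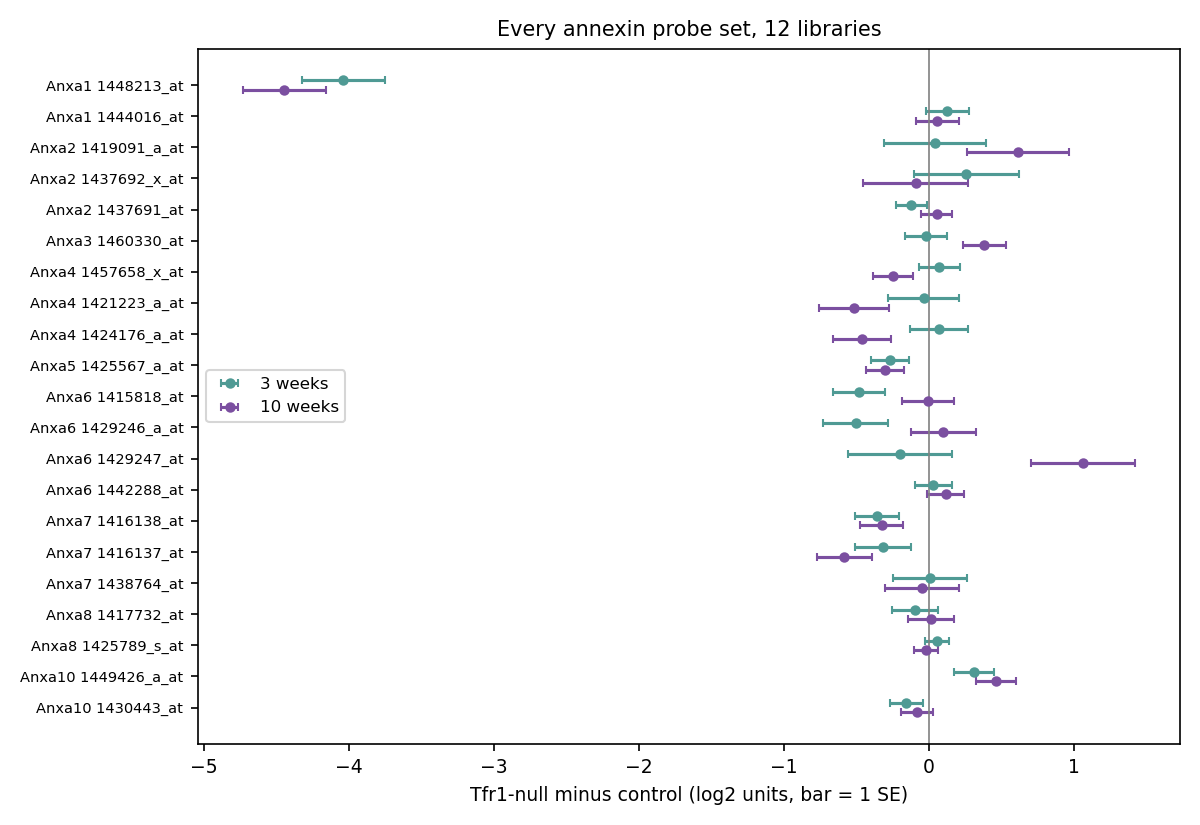
Difference between Tfr1-null and control (log2 units) for each of the 21 annexin probe sets in the 12 libraries, at 3 weeks and at 10 weeks, with bars of 1 SE. One probe set of Anxa1 lies at -4.04 and -4.45, and the other 20 lie between -0.58 and 1.06.

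Anxa8 and Anxa10 are annexins of epithelia. The leading probe set of Anxa8 lay above the 25th percentile in every library, and that of Anxa10 at or near it. Anxa8 read 5.77, 5.93 and 5.85 in the 3-week controls and 5.77, 5.73 and 5.77 in Tfr1-null 3 weeks 2 to 4, and its differences were -0.10 (SE 0.16) and 0.01 (SE 0.16). At 10 weeks Anxa8 read 6.84, 6.77 and 6.84 in control 10 weeks 2 to 4 and 6.84, 7.21 and 6.44 in Tfr1-null, so the Tfr1-null libraries spread to both sides of the controls. The libraries of doubtful label read 5.75 at 3 weeks and 6.84 at 10 weeks. Its second probe set read 6.02 in all 3 Tfr1-null libraries at 10 weeks. Anxa10, which has lost most of its calcium-binding residues, lay under the 25th percentile of the array in every control except the library labelled control 10 weeks 1.

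Anxa10 read 3.93, 4.23 and 4.32 in the 3-week controls, 4.39, 4.50 and 4.52 in Tfr1-null 3 weeks 2 to 4, and 4.82 in the library labelled Tfr1-null 3 weeks 1. At 10 weeks it read 4.90, 5.08 and 5.15 in control 10 weeks 2 to 4, 6.23 in the library labelled control 10 weeks 1, and 5.58, 5.27 and 5.69 in Tfr1-null. The libraries of doubtful label were thus the highest of their age for this gene, beyond both genotypes. The differences in the 12 libraries, 0.31 (SE 0.14) and 0.47 (SE 0.14), were not called, and since the controls lay at background they have no firm size. The second probe set of Anxa10 lay under the 25th percentile in all 14 libraries.

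Anxa9 and Anxa13 are annexins outside the members. Anxa9 differed by -0.22 (SE 0.28) at 3 weeks and 0.63 (SE 0.28) at 10 weeks in the 12 libraries, and Anxa13, under the 25th percentile in every library, by 0.22 (SE 0.15) and -0.07 (SE 0.15), none of them called. At 10 weeks Anxa9 lay under the 25th percentile in every control and in all but 1 of the 3 Tfr1-null libraries, so its 10-week difference lies at background.

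**Figure D4:**
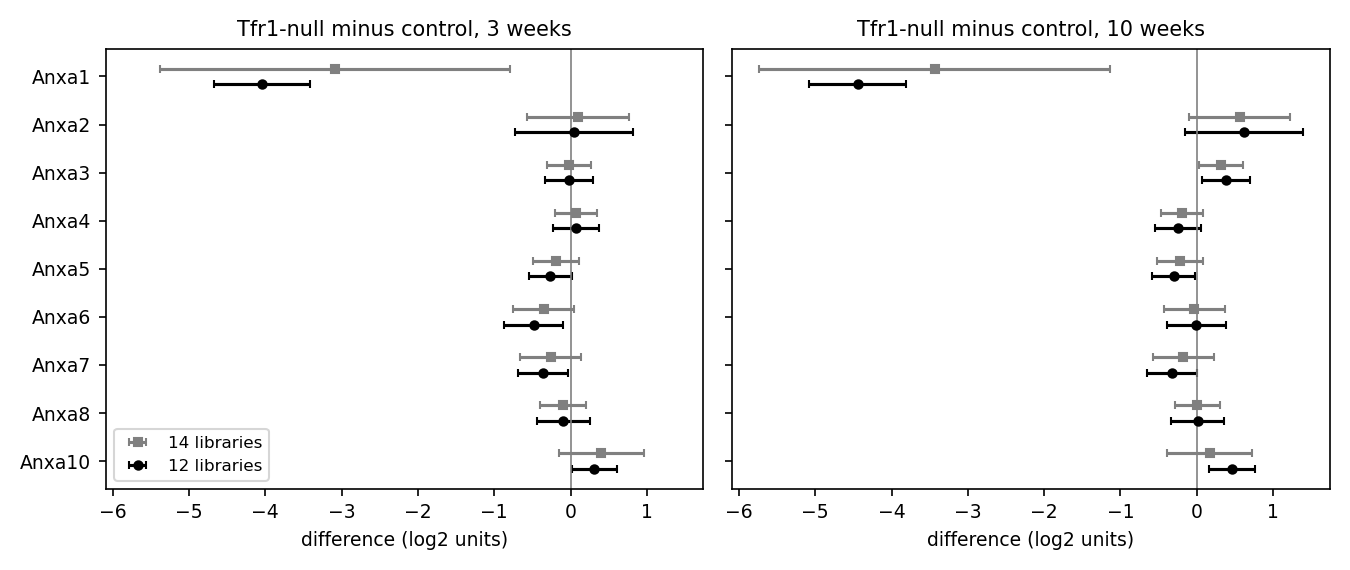
Difference between Tfr1-null and control (log2 units) for the leading probe set of 9 annexins at 3 and at 10 weeks, with 95% intervals from limma, in all 14 libraries as labelled (squares) and in 12 (circles). Only Anxa1 lies beyond 1 log2 unit, at -3.08 and -3.44 in 14 libraries and at -4.04 and -4.45 in 12.

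The receptors, S100 partners and binding proteins of annexins gave few calls between genotypes. Of 18 such genes fixed as a list 15 were measured, and in the 12 libraries 0 were called at 3 weeks and 1 was lower at 10 weeks, a share near the 6.34% of all genes called lower. That gene was Sri, which encodes sorcin, the partner of Anxa7: it fell by 0.42 (SE 0.08, limma adjusted p = 0.00983), after -0.36 (SE 0.08, adjusted p = 0.0553) at 3 weeks. S100a10, the partner of Anxa2, differed by -0.89 (SE 0.33) and -0.41 (SE 0.33), and Fpr2, a receptor of Anxa1, by -0.43 (SE 0.29) and 0.07 (SE 0.29). Plscr1, a phospholipid scramblase gene, differed by -0.78 (SE 0.22, limma adjusted p = 0.143) at 3 weeks. The median difference of the list was -0.06 at 3 weeks and -0.10 at 10 weeks. Fpr2, S100a10 and Plscr1 were not called, and neither was any gene of the list with all 14 libraries.

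Genes of plasma membrane repair likewise gave 0 of 16 called at 3 weeks and 1 of 16 at 10 weeks in the 12 libraries, with 0 at both ages in the 14. The 10-week fit called 11.1% of all genes, so this share is no higher than the background. Pdcd6ip, whose product ALIX recruits the membrane-cutting ESCRT machinery, rose by 0.41 (SE 0.11, limma adjusted p = 0.0423) at 10 weeks. Capn1, a calcium-activated protease gene, differed by -0.63 (SE 0.22, limma adjusted p = 0.258) and Pdcd6, a calcium sensor gene, by 0.21 (SE 0.09, limma adjusted p = 0.430) at 3 weeks. The list had a median of -0.02 and -0.0030, and 3 of its genes (Dysf, Pdcd6 and Ahnak) are also on the list of partners.

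Markers of other cells that carry annexins were counted in the same 12-library fit. That fit called 1.84% of all genes at 3 weeks and 11.1% at 10 weeks. Apart from Cd68, 0 genes were called at either age among markers of vessels (endothelial cells and pericytes, 11 measured), astrocytes (8), ventricle lining (ependyma and choroid plexus, 7), meningeal fibroblasts (7), oligodendrocytes (7), precursors of these (5) and neutrophils with monocytes (5). The mean level of the endothelial and pericyte genes lay between 6.86 and 7.25 in control and between 6.63 and 6.81 in Tfr1-null at 3 weeks, without overlap. At 10 weeks it lay between 7.33 and 7.59 and between 7.38 and 7.65. The ependymal and choroid plexus genes lay between 5.49 and 5.68 in control and between 5.39 and 5.41 in Tfr1-null at 3 weeks. Their part in the annexin values was not tested.

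Age gave the one comparison that the choice of members did not name, 10 weeks against 3 weeks within a genotype, on signals centred on each array's median. Anxa7 was lower at 10 weeks in controls, with a difference of -0.59 (SE 0.18, limma adjusted p = 0.0381), and in Tfr1-null, with -0.53 (SE 0.18, limma adjusted p = 0.0484) with all 14 libraries. Anxa3 was higher in Tfr1-null by 0.43 (SE 0.14, limma adjusted p = 0.0374). Limma called 1 of 9 annexins in controls, where 19.6% of all genes were called, and 2 of 9 in Tfr1-null, where 25.6% were. In the 12 libraries it called 0 of 9 in controls, where 18.7% of all genes were called, and Anxa7 alone in Tfr1-null, where 26.1% were. At an unadjusted p under 0.05 it counted 3 of 9 in controls, where 33.6% of all genes passed. The annexins thus did not stand above the background of age differences. Anxa1 differed with age by 0.32 (SE 0.28) in controls and by -0.12 (SE 0.28) in Tfr1-null in the 12 libraries, and neither was called.

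These age differences cannot be told apart from a shift in scale and sex. From 3 to 10 weeks the array median rose by 0.95 log2 units, the 25th percentile by 1.11 and the 75th percentile by 0.77, so bright probe sets gained less than dim ones. Before centring, Anxa7 was higher at 10 weeks, by 0.35 in controls and 0.43 in Tfr1-null. With quantile normalization of the 14 libraries 0 of 9 annexins were called in either genotype, where 14.5% of all genes were called in controls and 19.0% in Tfr1-null. At an unadjusted p under 0.05 limma counted 2 of 9 in each, where 29.6% and 33.6% of all genes passed. By the Y-linked gene Eif2s3y and by Xist, 1 of 7 libraries at 3 weeks and 7 of 7 at 10 weeks had a male pattern.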

How the data were processed

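The deposited values were log2 signals of 45101 Affymetrix probe sets in 14 libraries, made with robust multi-array averaging (RMA) in Partek 6.5, per the submitters' processing notes. Per the labels, 50 ng of RNA was amplified with the NuGEN Ovation kit. No label names a genome build or probe positions. Probe sets with 1 gene symbol in the platform annotation numbered 34958, with several 932 and with none 9211, and 13 control probe sets with a symbol were left out. The 18193 genes were fitted with limma 3.58.1 (lmFit and eBayes, a mean per group) in R 4.3.3, also with each probe set as a row, and figures were drawn with matplotlib 3.10.9 in Python 3.11.15. Residual degrees of freedom were 10 for 14 libraries and 8 for 12. Age contrasts were fitted after centring on the array median. Libraries were grouped by title. The source name of Tfr1-null 3 weeks 1 says control.

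The members, lists and alternatives were chosen with earlier results of these data known, and the 12 libraries with the Tfrc values known. All members were named. From the lists of partners and of membrane repair up to 4 called genes per age were named, or else the 2 with the smallest p, and for the member with the largest fall and rise the 5 genes of highest correlation. S100a10, Fpr2, the ventral tier and dopaminergic examples and Cd68 were named after their values were seen. The code was tested on simulated data. RefSeq promoters (GRCm38.p6) gave the sequences.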

Additional observations from a re-analysis of the deposited data

Results flagged for a closer look

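Sets of 4 libraries numbered 42 (21 annexin probe sets in the Tfr1-null libraries at 3 weeks and the controls at 10 weeks). Of these, 4 held a library far from the other 3 by Dixon's ratio. Its rate of about 1 of 20 sets by chance holds for independent sets of untied values. Here probe sets share genes, and where the other 3 libraries share a value the ratio is 1 whatever the gap. The count is therefore not compared with chance. The leading Anxa1 probe set read 8.03 in the library labelled control 10 weeks 1, beside 11.77 to 12.31 in the other controls. The second Anxa1 probe set read 2.82 in the library labelled Tfr1-null 3 weeks 1, where the other 3 shared 2.79, and 3.96 in control 10 weeks 4, all under the 25th percentile. Anxa8 read 6.77 in control 10 weeks 3, where the other 3 shared 6.84.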

How the results depend on the processing

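In the 12 libraries Anxa1 was called in 18 of 18 settings at each age, from -4.32 to -1.95 at 3 weeks and from -4.67 to -2.19 at 10 weeks. In the 14 it was called in 1 of 21 settings at each age, from -4.04 to -1.47 and from -4.45 to -1.67. Counts are of annexins called, out of 9, and the percentage beside a count is the share of all genes called in that setting, in either direction. With 14 libraries, the 3-week count of 0 (0%) became 1 with array weights (3.24%) and 1 with 12 libraries (1.84%). The 10-week count of 0 (1.21%) became 1 with 12 libraries (11.1%). It ranged from 0 to 1 with 1 library left out, the 1 being without control 10 weeks 1 (10.6%). With 12 libraries, the 3-week count of 1 (1.84%) became 3 with array weights (7.48%) and 3 with only the libraries of that age (5.05%). The 10-week count of 1 (11.1%) became 2 with a filter on dim probe sets (13.4%) and 2 with the mean of a gene's probe sets (10.8%). It ranged from 1 to 2 with 1 library left out (7.83% to 11.7%).

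For age in controls, the 14-library count of 1 (19.6%) became 0 with quantile normalization (14.5%), 7 without centring (87.4%) and 0 with 12 libraries (18.7%). It ranged from 0 to 2 with 1 library left out (11.7% to 20.7%). The 12-library count of 0 (18.7%) became 1 with the replicate block (13.9%), 1 with the mean of probe sets (17.6%) and 9 without centring (87.8%). It ranged from 0 to 2 with 1 library left out (10.7% to 20.6%). For age in Tfr1-null, the 14-library count of 2 (25.6%) became 0 with the replicate block (22.1%) and 0 with quantile normalization (19.0%). It became 1 with the filter on dim probe sets (23.7%), 1 with the mean of probe sets (25.1%), 8 without centring (85.5%) and 1 with 12 libraries (26.1%). With 1 library left out it ranged from 0 to 3 (19.0% to 28.6%). The 12-library count of 1 (26.1%) became 0 with the replicate block (16.1%), 2 with array weights (26.1%) and 0 with quantile normalization (18.2%). It became 0 with the mean of probe sets (25.4%) and 9 without centring (86.1%). With 1 library left out it ranged from 0 to 2 (16.9% to 29.6%). Same-numbered libraries correlated between -0.03 and 0.09, although 4 of 6 controls correlated best with their own number. The pairs of number 1 include the libraries of doubtful label. These values do not settle whether same-numbered libraries share more than a number. The cause of these moves was not tested.

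Without centring, age differences reversed for Anxa5 (0.63), Anxa6 (0.50) and Anxa7 (0.35) in controls and for Anxa5 (0.59), Anxa6 (0.82), Anxa7 (0.43) and Anxa10 (0.95) in Tfr1-null with 14 libraries. With 12, a setting added after the data were seen, they reversed for Anxa5 (0.71), Anxa6 (0.47), Anxa7 (0.50) and Anxa10 (0.89) in controls and for Anxa1 (0.85), Anxa5 (0.67), Anxa6 (0.95) and Anxa7 (0.53) in Tfr1-null. These settings without centring called 85.5% to 87.8% of all genes. No called genotype difference changed sign. Of 720 genotype differences over all settings, 27 changed sign, none of them called: they belong to Anxa2, Anxa3 and Anxa4 at 3 weeks and to Anxa6 and Anxa8 at 10 weeks, whose values lay between -0.03 and 0.09 before and between -0.18 and 0.32 after, so these have no settled direction.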
